A study of Mus musculus with 16 samples.

Results

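CAF1 is 1 of 4 lines of carcinoma-associated fibroblasts in a series of 16 Illumina bead arrays, and its 2 arrays were compared with the 6 arrays of the lines CAF2, CAF3 and CAF4, which carry the same stage label. The lines were assigned by the line name in the array titles, and each line has 2 arrays labelled as replicates, called cultures here. All 4 lines are mammary fibroblasts of FVB/N background from carcinomas of the MMTV-PyMT model, in which the mouse mammary tumour virus promoter drives the polyoma middle T oncogene in the mammary epithelium. All of them, and the other 4 lines, carry the E6 gene of human papillomavirus for immortalization and were kept for 72 h in medium with 10% serum on a deformable matrix mixed from Matrigel and collagen I. The other 4 lines served to place the levels: NF2 and NF3 from normal gland, HpAF1 from hyperplasia and AdAF1 from adenoma of the same model. E6 promotes the loss of the p53 protein, and the sources used here do not give whether the lines come from separate mice. CAF1 is a single line: what belongs to CAF1 itself, to its mouse, to its isolation or to its array batch cannot be told apart.

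Fibroblasts of a tumour build and cut the extracellular matrix and send signals to the other cells of the tumour. In one well-known state they release chemokines, acute-phase proteins and interleukin-6, genes that the transcription factor NF-kappa-B switches on downstream of cytokine and Toll-like receptors. Interferon-stimulated genes form a separate program, driven by interferon receptors, and the basement membrane, a sheet of collagen IV and laminin, is another product of these cells.

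In CAF1, secreted inflammatory genes stood far above the other carcinoma lines. Col4a1 and Col4a2 of collagen IV, Mgp and the developmental transcription factor Msx1 stood below them. Values are normalized log2 intensities unless a fold is named, so that 1 unit is a doubling of signal, and low intensities are compressed toward background. With cultures as replicates, 536 of 7454 tested genes (7.19%) were higher and 479 (6.43%) lower in CAF1 than the mean of the 3 lines at an adjusted p under 0.05 in limma. Among them, 309 were higher and 226 lower by at least 2-fold on the fitted scale. Counts of list members below are to be read beside the shares of 7.19% and 6.43% over all tested genes. A difference from the mean of 3 lines can come from 1 of them, so a gene was called apart when CAF1 differed from each of the 3 lines in the same direction. This held for 147 genes (1.97%) on the higher side and 65 (0.872%) on the lower side. P-values between cultures measure the spread between these cultures only, which may be technical.

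With the mean of each line as 1 replicate, which assumes that the lone line CAF1 varies like the others, 35 genes (0.47%) were higher and 5 (0.0671%) lower. Of the genes that were apart, 33 of the 147 higher and 4 of the 65 lower also passed over lines. Counted in probes, 1394 of 10453 (13.3%) passed over cultures, 274 (2.62%) were apart and 45 (0.43%) passed over lines. The same criterion of being apart from the 3 other carcinoma lines was met by 125 probes for CAF2 (1.2%), 76 for CAF3 (0.727%) and 39 for CAF4 (0.373%). These 4 counts use the same arrays, and their difference was not tested. The counts rest on both CAF1 cultures: 333 probes passed over cultures without the first and 283 without the second, and 104 and 87 were apart. Named genes whose call was lost when 1 CAF1 culture, or 1 culture or line of the others, was left out are given with the adjusted p that resulted. The count over lines rests on CAF4: without that line 0 probes passed in limma over lines (1078 at an unadjusted p under 0.05), against 1263 at an unadjusted p under 0.05 with it.

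**Figure D1:**
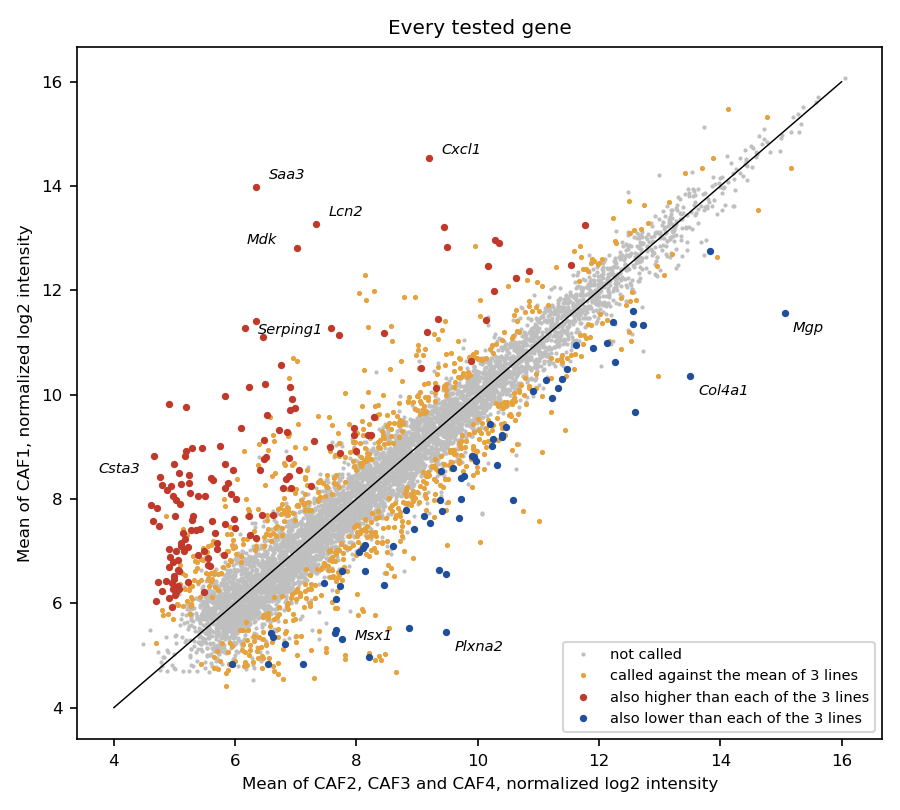
Each point is 1 of 7454 tested genes, with the mean of the 2 CAF1 arrays on the vertical axis and the mean of the lines CAF2, CAF3 and CAF4 on the horizontal axis, both as normalized log2 intensity; the line marks equal levels. Red points (147) were higher and blue points (65) lower in CAF1 than in each of the 3 lines, orange points differed from their mean only, and Saa3, Lcn2, Mdk and Cxcl1 lie farthest above the line.

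The arrays were first checked against their labels. Of 23 fibroblast and CAF markers with a probe, 19 were detected on both CAF1 arrays and 17 on all 6 other arrays, while Cd34, Fap and Postn were detected on no carcinoma array. Of 21 mammary epithelial markers, 17 were detected on no carcinoma array, among them Krt8, Krt18, Krt14, Krt5 and Cdh1. Krt19, Cldn7 and Muc1 were each detected on 1 CAF1 array and on none of the 6 others. Trp63 was detected on 1 CAF1 array and 1 other. The summed intensity of the 21 markers was 731 to 760 in CAF1 and 648 to 718 in the other lines. Of 19 leukocyte markers, 15 were detected on no carcinoma array, including Ptprc, Adgre1 and Itgam, with sums of 713 to 716 in CAF1 and 658 to 779 in the other lines. Probes detected per array numbered 9599 and 9394 in CAF1 and between 7693 and 9823 in the other carcinoma lines. Over all tested probes, which are not independent, the 2 CAF1 cultures correlated at 0.994. CAF1 correlated at 0.967 to 0.978 with the adenoma line AdAF1, at 0.937 to 0.949 with NF2, at 0.934 to 0.94 with CAF3, at 0.914 to 0.932 with CAF4 and at 0.893 to 0.909 with CAF2. In bulk RNA, more cells that express a gene and more RNA per cell cannot be told apart.

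RefSeq promoter sequences on GRCm38.p6 span 250 bases before and 50 after the annotated start. They are shown for some chemokine, cytokine and interferon genes that were higher in CAF1. Capitals mark matches on either strand to the NF-kappa-B consensus or to GAAANNGAA, the core of the interferon-stimulated response element. Matches can overlap each other. Only windows with a match were candidates for display here, so the display does not tell how common matches are. A Saa3 window and a Cxcl14 window, not shown, hold 1 GAAANNGAA each and 0 NF-kappa-B matches.
Cxcl1, chr5:90890995-90891294, plus strand: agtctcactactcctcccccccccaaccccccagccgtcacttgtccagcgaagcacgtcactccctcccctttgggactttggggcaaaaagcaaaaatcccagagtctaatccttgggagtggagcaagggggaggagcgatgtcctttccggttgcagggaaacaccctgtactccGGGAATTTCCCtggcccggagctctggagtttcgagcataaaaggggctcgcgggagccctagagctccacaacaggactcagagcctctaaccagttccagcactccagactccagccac
Il6, chr5:30012864-30013163, plus strand: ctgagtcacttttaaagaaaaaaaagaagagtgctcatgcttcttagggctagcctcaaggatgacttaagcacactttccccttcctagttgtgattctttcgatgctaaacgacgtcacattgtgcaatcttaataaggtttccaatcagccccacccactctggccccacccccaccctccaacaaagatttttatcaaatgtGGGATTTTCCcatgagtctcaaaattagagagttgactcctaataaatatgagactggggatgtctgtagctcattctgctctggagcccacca
Cxcl10, chr5:92348840-92349139, minus strand: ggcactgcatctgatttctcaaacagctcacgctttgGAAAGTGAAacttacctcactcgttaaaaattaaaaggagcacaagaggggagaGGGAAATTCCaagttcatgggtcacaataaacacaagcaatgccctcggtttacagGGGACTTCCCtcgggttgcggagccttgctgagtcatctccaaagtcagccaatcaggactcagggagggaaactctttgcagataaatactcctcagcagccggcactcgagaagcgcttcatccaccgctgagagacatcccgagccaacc
Rsad2, chr12:26456403-26456702, minus strand: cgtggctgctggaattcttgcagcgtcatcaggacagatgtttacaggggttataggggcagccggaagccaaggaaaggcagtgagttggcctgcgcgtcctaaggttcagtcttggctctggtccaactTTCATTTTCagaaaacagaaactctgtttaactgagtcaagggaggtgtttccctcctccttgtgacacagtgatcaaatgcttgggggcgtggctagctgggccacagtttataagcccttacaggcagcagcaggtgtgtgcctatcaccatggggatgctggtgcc
Gbp3, chr3:142559794-142560093, plus strand: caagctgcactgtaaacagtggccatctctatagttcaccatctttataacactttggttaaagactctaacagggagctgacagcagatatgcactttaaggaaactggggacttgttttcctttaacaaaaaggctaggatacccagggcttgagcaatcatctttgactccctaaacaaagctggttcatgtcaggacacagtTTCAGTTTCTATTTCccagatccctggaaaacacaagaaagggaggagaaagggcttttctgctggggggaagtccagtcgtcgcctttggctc
The Cxcl1 window holds 2 overlapping NF-kappa-B matches, the Il6 window 1 and the Cxcl10 window 2. GAAANNGAA stands once in the Cxcl10 and Rsad2 windows and 2 times, overlapping, in the Gbp3 window. Of 15 acute-phase, chemokine and NF-kappa-B pathway genes that were higher in CAF1 and had a promoter sequence, 7 (46.7%) held an NF-kappa-B match, against 370 of 6067 tested genes with a promoter sequence (6.1%). Over all genes higher in CAF1 the share was 43 of 411 (10.5%), and over those lower in CAF1 it was 21 of 388 (5.41%). GAAANNGAA stood in 9 of 12 higher interferon genes (75%), in 58 of 411 higher genes (14.1%), in 27 of 388 lower genes (6.96%) and in 521 of all 6067 (8.59%). The lists were written around genes of these pathways, and list members that were not higher in CAF1 were not counted. The shares among list genes therefore cannot tell anything about CAF1. A match is a description of the letters in this window and says nothing about whether a factor was bound.

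Saa3, an acute-phase serum amyloid, had the largest difference of all. Its level was 13.82 and 14.15 in CAF1, against 5.37 to 8.66 with a median of 5.64 in the other lines. No array of the other lines came near the CAF1 cultures, and Saa3 was detected on only 2 of those 6 arrays. The difference was 7.64 (SE 0.77, adjusted p = 6.64e-05), and it also passed over lines (adjusted p = 0.0125). Lcn2, a lipocalin that withholds iron from bacteria, was at 13.27 and 13.27 in CAF1 and 5.13 to 9.61 with a median of 7.41 in the others, a difference of 5.94 (SE 1.04, adjusted p = 0.00335). The lines CAF2, CAF3 and CAF4 differed widely in Lcn2 and overlapped one another, and over lines Lcn2 did not pass (adjusted p = 0.0872). Over cultures the call of Lcn2 (adjusted p = 0.0531 without CAF1 culture 1, 0.058 without CAF1 culture 2) was lost with 1 culture left out. Chil1, a chitinase-like lectin, stood at 8.89 and 9.06 in CAF1 and was not detected on any of the 6 other arrays, which makes it at least 6.95-fold higher (adjusted p = 2.01e-06). These 3 were the members of the acute-phase list that rose, of 11 tested and 19 listed, and all 3 were apart. Serpina3n, a serpin of the acute phase, was at 12.34 and 12.38 in CAF1 and at 9.75 in CAF2, 12.48 in CAF3 and 12.74 in CAF4, so that CAF1 lay within the range of the other lines. The median of the list was 0.37, beside -0.02 over all tested genes.

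Of the CXC chemokines, which draw neutrophils, lymphocytes and monocytes, 6 of 7 tested members (15 listed) were higher in CAF1 and none was lower, with 5 apart and a median of 3.62, beside 7.19% of all tested genes higher. Cxcl1, a neutrophil attractant, was at 14.54 and 14.54 in CAF1. It stood at 7.84 in CAF2, 9.80 in CAF3 and 9.96 in CAF4, and the difference was 5.34 (SE 0.79, adjusted p = 0.00119). Cxcl5, another ligand of the neutrophil receptor, was at 8.63 and 9.02 in CAF1 and on none of the 6 other arrays above background, so that it was at least 6.28-fold higher (adjusted p = 3.64e-06). Cxcl5 was among the 5 higher genes of smallest p over lines (adjusted p = 0.00815), where the similar low signals of the other lines enter the estimate of spread. Cxcl14, an attractant of monocytes and dendritic cells, differed by 4.15 (SE 0.33, adjusted p = 1.18e-05). Its levels were 9.91 and 10.05 in CAF1, against 4.91 in CAF2, 6.71 in CAF3 and 5.89 in CAF4, where it was detected on 3 of 6 arrays. Cxcl16, a chemokine that also scavenges oxidized lipids, differed by 2.97 (SE 0.18, adjusted p = 2.01e-06), and Cxcl10, the interferon-inducible T cell attractant, by 2.67 (SE 0.26, adjusted p = 6.16e-05).

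Among CC chemokines, 6 of 9 tested members (15 listed) were higher and none lower, with 5 apart and a median of 2.42. Of these 9, 1 had passed the detection filter on the CAF1 arrays alone. Ccl11, the eosinophil attractant eotaxin, was at 11.34 and 11.47 in CAF1 and 5.08 to 8.80 with a median of 6.01 in the others. The 2 CAF1 cultures lay well above all 6 arrays, and the difference was 5.07 (SE 0.71, adjusted p = 0.000911). Ccl2, the main attractant of monocytes, was at 11.26 and 11.31 in CAF1, against 6.03 in CAF2, 8.94 in CAF3 and 7.77 in CAF4. Its neighbour gene Ccl7, a monocyte attractant as well, was at 12.77 and 13.03 in CAF1 and at 9.06, 11.35 and 10.65 in CAF2, CAF3 and CAF4. Both were lowest in CAF2 and highest in CAF1, with differences of 3.71 (SE 0.36) for Ccl2 and 2.55 (SE 0.26) for Ccl7. Ccl5, which attracts T cells, differed by 2.42 (SE 0.28, adjusted p = 0.000218).

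**Figure D2:**
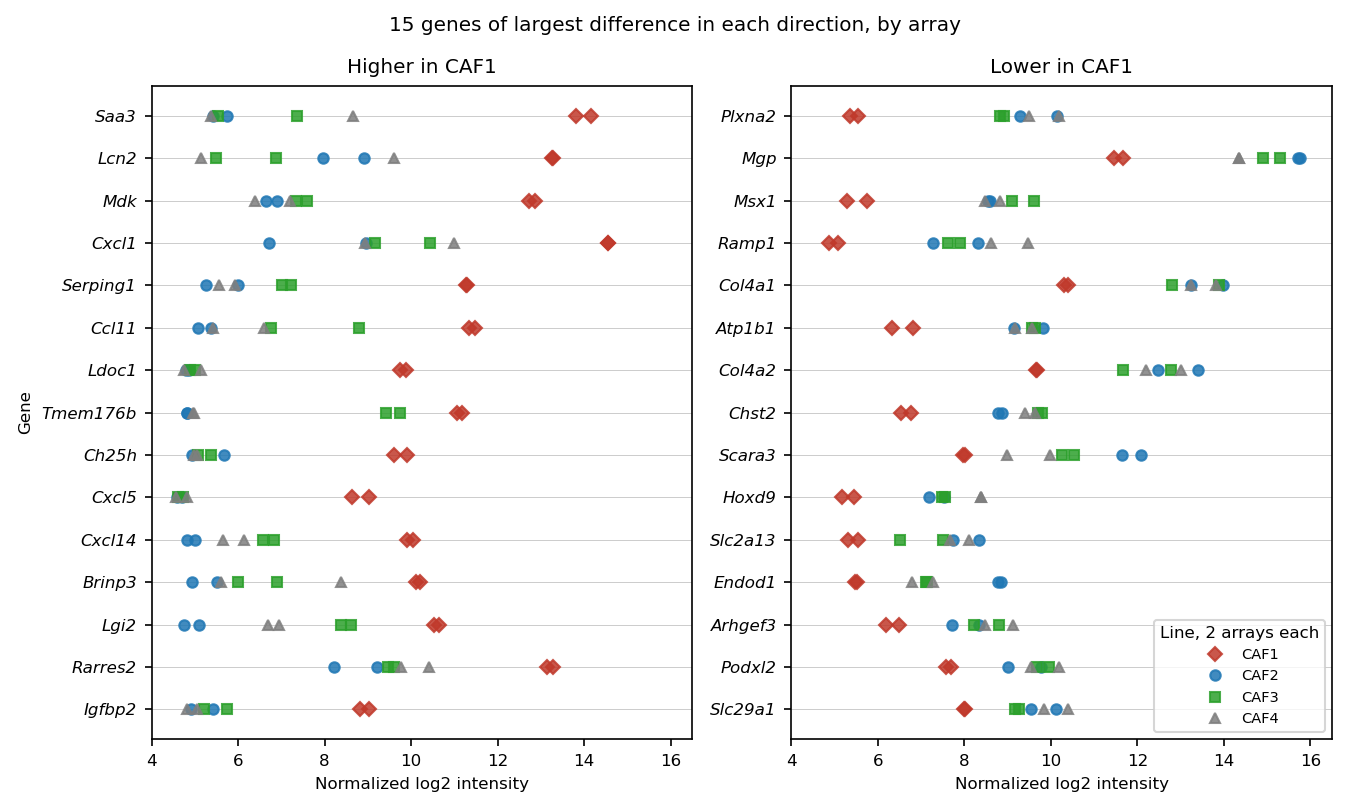
Normalized log2 intensity on each of the 8 carcinoma arrays for the 15 genes of largest positive (left) and largest negative (right) difference among genes apart from each line; red diamonds are the 2 CAF1 arrays, and circles, squares and triangles those of CAF2, CAF3 and CAF4. In all 30 genes both CAF1 arrays lie outside the 6 others, as the choice of genes requires.

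Interleukins and their relatives moved less uniformly: 6 of 18 tested members (30 listed) were higher and 2 lower, with a median of 0.48. Il6 was at 6.56 and 7.02 in CAF1 and was detected on none of the 6 other arrays, and it was at least 1.53-fold higher (adjusted p = 0.00011). Lif, a cytokine of the same family, was at 6.89 and 6.78 in CAF1, also undetected in the others and at least 1.58-fold higher (adjusted p = 5.11e-05). Both passed over lines, at an adjusted p of 0.0411 for Il6 and 0.0451 for Lif. They passed the detection filter with no array of CAF2, CAF3 or CAF4, so these p-values are no separate support. With detection on at least 4 arrays Il6 was not tested. Of the 18 tested members, 1 had passed the filter on the CAF1 arrays alone. Il1rn, the antagonist that blocks the interleukin-1 receptor, went the other way. It was not detected in CAF1, at 4.91 and 4.92, and stood at 9.51 in CAF2, 8.38 in CAF3 and 7.02 in CAF4, so that it was at least 5.53-fold lower in CAF1 (adjusted p = 0.00257). Il1rn was not apart, because the pair of CAF1 and CAF4 did not pass. Ptgis, which makes prostacyclin, was higher by 1.17 (SE 0.27, adjusted p = 0.0141), with CAF1 close to CAF2 and far from CAF4. The call was lost for Ptgis (adjusted p = 0.0944 without CAF1 culture 1, 0.19 without CAF1 culture 2, 0.183 without line CAF4).

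The sensing and feedback genes of NF-kappa-B rose with the chemokines: 9 of 21 tested members (29 listed) were higher, 1 was lower and 7 were apart, with a median of 0.89. Nfkbiz, the atypical nuclear inhibitor that co-activates acute-phase and cytokine genes, was at 11.14 and 11.16 in CAF1. The 3 other lines were alike in Nfkbiz, at 7.63, 7.83 and 7.66 for CAF2, CAF3 and CAF4, and the difference was 3.45 (SE 0.20, adjusted p = 1.73e-06). Tnfaip3, the A20 enzyme that ends NF-kappa-B signalling, was at 7.53 and 7.43 in CAF1, undetected on the 6 other arrays and at least 2.47-fold higher (adjusted p = 1.43e-05). Icam1, a ligand of leukocyte integrins, was higher by 3.27 (SE 0.27, adjusted p = 1.85e-05). Tlr2, the receptor for bacterial lipoproteins, was at 9.57 and 9.65 in CAF1 and at 5.53 in CAF2, 7.45 in CAF3 and 6.59 in CAF4. It was higher by 3.09 (SE 0.31, adjusted p = 6.62e-05). Ier3, an early-response gene of the same pathway, was higher by 2.29 (SE 0.35) and apart. Sod2, the mitochondrial superoxide dismutase and a known NF-kappa-B target listed here with the antioxidant genes, was higher by 1.73 (SE 0.24) and apart. Nfkbiz, Tnfaip3 and Icam1 also passed over lines (adjusted p = 0.0137, 0.0104 and 0.0451), while Tlr2 did not (adjusted p = 0.181). Without the first or the second CAF1 culture, 7 and 8 of the 21 remained higher at the threshold, as did 5 and 5 CXC and 6 and 5 CC chemokines.

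All 27 tested interferon response genes (45 listed) had a higher mean in CAF1, and 18 of them rose, but only 4 were apart from each line. The median was 1.77, and 2 of the 27 had passed the detection filter on the CAF1 arrays alone. Rsad2, the antiviral enzyme viperin, was at 7.34 and 7.48 in CAF1 and at 4.83 in CAF2, 6.05 in CAF3 and 5.19 in CAF4, a difference of 2.05 (SE 0.20, adjusted p = 5.11e-05). Gbp3, a guanylate-binding GTPase, was at 8.93 and 9.20 in CAF1, with CAF3 at 7.76, nearer to it than CAF4 at 6.00 and CAF2 at 5.43. It was higher than the mean by 2.67 (SE 0.39, adjusted p = 0.00111) and was not apart. In Rsad2 and Gbp3 alike CAF3 was the second highest carcinoma line. Irf7, the transcription factor that amplifies the interferon response, was higher by 2.00 (SE 0.29, adjusted p = 0.00112). Oas2, which makes the oligoadenylate that activates RNase L, was undetected on the 6 other arrays and at least 1.88-fold higher (adjusted p = 0.000722). Oas2 alone of the list passed over lines (adjusted p = 0.0411). It passed the detection filter with no array of CAF2, CAF3 or CAF4, so this p-value is no separate support. With detection on at least 4 arrays Oas2 was not tested, and 16 of the list were higher. The number of interferon genes past the threshold was 5 with either CAF1 culture left out, so the count of 18 depends on having both.

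Antigen-processing genes split. Of 16 tested members (22 listed), 5 were higher and 3 lower, with a median of 0.38. Psmb8 and H2-D1 had passed the detection filter on the CAF1 arrays alone, so that they had to differ, and with detection on at least 4 arrays 3 were higher. Psmb8, an immunoproteasome subunit, was at least 1.37-fold higher (adjusted p = 0.000147), since no array of the other lines detected it, and Tap2, a peptide transporter, was higher by 1.36 (SE 0.26, adjusted p = 0.00529). For the class I heavy chains, the H2-K1 probe was not detected in CAF1, at 5.45 and 5.09, nor in CAF2, at 4.87. It stood at 8.45 in CAF3 and 7.70 in CAF4. Its log2 difference from the mean of CAF2, CAF3 and CAF4 was -1.74 (adjusted p = 0.000753), with CAF2 in that mean at background. The H2-D1 probe was at 6.26 and 6.67 in CAF1, detected on no array of the other lines and at least 1.22-fold higher (adjusted p = 0.00107). H2-K1 and H2-D1 are near-identical genes, and which of them a probe reads is uncertain. Among these genes, Tap2 (adjusted p = 0.0753 without CAF1 culture 1, 0.0781 without CAF1 culture 2) did not pass with 1 CAF1 culture left out.

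Serping1, the inhibitor of complement C1, was at 11.27 and 11.30 in CAF1 and 5.26 to 7.21 with a median of 5.96 in the others, a difference of 5.12 (SE 0.38, adjusted p = 7.31e-06), and it was the only 1 of 6 tested complement genes past the threshold. C1s1, a protease of that complex, differed by 0.64 (SE 0.33) and did not pass. Rarres2, the chemoattractant and adipokine chemerin, was at 13.29 and 13.14 in CAF1, at 8.72 in CAF2, 9.54 in CAF3 and 10.10 in CAF4. It was higher by 3.76 (SE 0.57, adjusted p = 0.00134) and was the 1 of 18 adipogenic genes that was apart; 2 of the 18 were higher and 4 lower. Ch25h, which makes 25-hydroxycholesterol, was at 9.61 and 9.91 in CAF1, undetected in the others and at least 12-fold higher (adjusted p = 0.00107), and it passed over lines (adjusted p = 0.00815). Tmem176b, a membrane protein of dendritic cells, divided the lines: 11.05 and 11.18 in CAF1 and 9.58 in CAF3, against 4.82 in CAF2 and 4.98 in CAF4, both undetected. Brinp3, a neural protein, was higher by 3.93 (SE 0.62) and Lgi2, a secreted leucine-rich protein, by 3.83 (SE 0.44), both apart. Tmem176b was apart over cultures but not past the threshold over lines (adjusted p = 0.402).

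The collagen IV genes Col4a1 and Col4a2 both fell. Col4a1 was at 10.40 and 10.30 in CAF1, against 12.81 to 13.99 with a median of 13.53 in the other lines, and Col4a2 was at 9.68 and 9.66 in CAF1, against 11.67 to 13.39 with a median of 12.63. The groups did not overlap for either gene, and the 3 other lines lay close together. Col4a1 fell by 3.14 (SE 0.47, adjusted p = 0.00126) and Col4a2 by 2.92 (SE 0.54, adjusted p = 0.00471), and both passed over lines, at an adjusted p of 0.0137 for Col4a1 and 0.0428 for Col4a2. The 2 genes encode chains of the same trimer and are annotated head to head: their starts lie 21 bases apart on opposite strands. The Col4a1 window is shown because both genes fell together, with the 78 bases that it shares with the Col4a2 window in capitals.
Col4a1, chr8:11312777-11313076, minus strand: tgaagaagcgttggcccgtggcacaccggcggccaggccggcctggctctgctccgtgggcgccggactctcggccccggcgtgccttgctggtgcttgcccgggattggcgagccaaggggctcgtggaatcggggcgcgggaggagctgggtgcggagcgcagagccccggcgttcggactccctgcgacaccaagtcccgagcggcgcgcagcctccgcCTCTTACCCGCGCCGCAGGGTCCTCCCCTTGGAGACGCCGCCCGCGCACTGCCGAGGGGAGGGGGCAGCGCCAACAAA
Neither window holds a match to the NF-kappa-B consensus or to GAAANNGAA. The basement membrane list as a whole includes Col4a1 and Col4a2. Of its 12 tested members (22 listed), 3 were lower and none was higher, with a median of -0.35. Lamb2, a laminin chain, fell by 0.95 (SE 0.21, adjusted p = 0.0111), and Col15a1, a collagen next to basement membranes, stood at -2.16 (SE 0.67, adjusted p = 0.053) and did not pass. Over cultures, calls lost with 1 CAF1 culture left out were those of Col4a2 (adjusted p = 0.0665 without CAF1 culture 1, 0.0724 without CAF1 culture 2) and Lamb2 (adjusted p = 0.208 without CAF1 culture 2).

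Mgp, an inhibitor of calcification in the matrix, was at 11.66 and 11.47 in CAF1 and 14.35 to 15.77 with a median of 15.10 in the others. It is one of the brightest genes in the other lines, all 6 arrays lay above CAF1, and Mgp fell by 3.50 (SE 0.18, adjusted p = 6.71e-07). Fibrillar and associated matrix genes changed in both directions, 3 higher and 4 lower of 20 tested (31 listed), with a median of -0.23. Over all tested genes 7.19% were higher and 6.43% lower. Mfap2, a microfibril protein, was higher by 2.45 (SE 0.40, adjusted p = 0.00207), with CAF3 at 10.92 level with CAF1 at 10.97 and 11.08. Thbs2, a matricellular thrombospondin, was higher by 1.35 (SE 0.27). Col6a1, a chain of collagen VI, fell by 1.08 (SE 0.21, adjusted p = 0.00687) and Ecm1, a glycoprotein of the matrix, by 1.21 (SE 0.18, adjusted p = 0.00137); Ecm1 alone of this list was apart. Of 19 proteoglycan and hyaluronan genes 2 were higher and 3 lower, and Dcn, the proteoglycan decorin, was higher by 2.89 (SE 0.41), at 12.76 and 12.93 in CAF1 and with CAF2 at 7.50 far below CAF3 at 10.80 and CAF4 at 11.56. Of 15 genes for collagen crosslinking and hydroxylation 3 were higher and none was lower, with a median of 0.158. The collagen I chain Col1a1 was at 10.65 and 11.00 in CAF1 and 11.01 to 11.99 with a median of 11.40 in the others (adjusted p = 0.316), and Col3a1 of collagen III was at 7.00 and 8.11 in CAF1 and 7.09 to 8.74 with a median of 8.08 in the others (adjusted p = 0.565). For these fibrillar collagens no difference was detectable with 2 and 6 cultures. The calls of Col6a1 (adjusted p = 0.111 without CAF1 culture 1, 0.0678 without CAF1 culture 2) and Thbs2 (adjusted p = 0.104 without CAF1 culture 1, 0.0961 without CAF1 culture 2) were lost with 1 culture left out.

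The list of matrix metalloproteinases and ADAMTS proteases rose in 5 of 16 tested members (26 listed) and fell in 2, and none was apart. Mmp3, stromelysin-1, was at 12.31 and 12.29 in CAF1, against 4.73 in CAF2, where it was not detected, 10.38 in CAF3 and 9.31 in CAF4. The difference of 4.16 (SE 0.63, adjusted p = 0.00136) is therefore largest against CAF2. Mmp13, a collagenase, was at 9.43 and 9.44 in CAF1 and 5.57 to 10.33 with a median of 6.50 in the others, so the groups overlapped. It differed by 2.40 (SE 0.56, adjusted p = 0.0162), and a second Mmp13 probe gave 0.075 and did not pass. Mmp17, a membrane-anchored protease, was undetected in CAF1 and at least 1.84-fold lower (adjusted p = 0.0131). Of 13 protease inhibitor and plasminogen genes 2 were higher and 1 was lower, Timp3, a matrix-bound inhibitor of metalloproteinases, which fell by 1.54 (SE 0.32, adjusted p = 0.00859). Of 10 integrin genes 2 were lower and none higher: the fibronectin receptor subunit Itga5 fell by 2.15 (SE 0.46, adjusted p = 0.01), and Itgbl1, an integrin-related secreted protein, was undetected in CAF1 and at least 6.47-fold lower (adjusted p = 0.0141). Leaving out arrays ended the calls of Mmp13 (adjusted p = 0.139 without CAF1 culture 1, 0.155 without CAF1 culture 2, 0.1 without line CAF2), Mmp17 (adjusted p = 0.0822 without CAF1 culture 1, 0.189 without CAF1 culture 2, 0.0545 without line CAF2), Timp3 (adjusted p = 0.107 without CAF1 culture 1, 0.0938 without CAF1 culture 2, 0.0956 without line CAF2), Itga5 (adjusted p = 0.127 without CAF1 culture 1, 0.0914 without CAF1 culture 2) and Itgbl1 (adjusted p = 0.127 without CAF1 culture 1, 0.144 without CAF1 culture 2).

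Among fibroblast markers 3 of 19 tested were higher and 4 lower, with a median of -0.48. Over all tested genes 7.19% were higher and 6.43% lower. Acta2, the actin of contractile myofibroblasts, was at 15.71 and 15.51 in CAF1 and 15.19 to 15.84 with a median of 15.68 in the others and differed by 0.04 (SE 0.34, adjusted p = 0.957). The level of CAF1 lay inside the range of the other lines, near the top of the intensity scale. Vim, the intermediate filament of mesenchymal cells, fell by 1.07 (SE 0.17, adjusted p = 0.00215) and was apart. Thy1, a surface marker, fell by 0.77 (SE 0.23, adjusted p = 0.0451), while Pdgfra, a PDGF receptor, was higher by 1.15 (SE 0.27) and Pdpn, podoplanin, by 0.90 (SE 0.14). Pdgfrb was at 7.43 and 7.46 in CAF1 and 7.19 to 8.48 with a median of 7.96 in the others and did not pass. Of 20 tested contractile and SRF target genes, 2 were lower. They are Smtn, smoothelin, which fell by 1.33 (SE 0.21, adjusted p = 0.00159) and was apart, and Csrp1, an actin-associated LIM protein. Csrp1 was undetected in CAF1 and CAF2 and stood at 9.65 in CAF3 and 9.90 in CAF4. Its log2 difference from the mean of CAF2, CAF3 and CAF4 was -3.16, with CAF2 in that mean at background. Of 16 YAP and TAZ targets 1 was higher and 3 lower, among them Nuak2, a kinase, which fell by 1.46 (SE 0.24, adjusted p = 0.00262), and Ccn2, the connective tissue growth factor, which fell by 0.81 (SE 0.20, adjusted p = 0.0189). Of these genes, Vim (adjusted p = 0.0653 without CAF1 culture 2), Thy1 (8 of the left-out cultures or lines, adjusted p up to 0.345), Pdgfra (adjusted p = 0.0998 without CAF1 culture 1, 0.212 without CAF1 culture 2, 0.0602 without line CAF4), Pdpn (adjusted p = 0.0504 without CAF1 culture 1, 0.0514 without line CAF2), Nuak2 (adjusted p = 0.0654 without CAF1 culture 1) and Ccn2 (adjusted p = 0.143 without CAF1 culture 1, 0.19 without CAF1 culture 2, 0.093 without line CAF2) lost the call when arrays were left out.

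Growth factors were higher in 9 of 21 tested members (31 listed) and lower in 1, with a median of 0.78, and with either CAF1 culture left out 1 member was higher. Mdk, the heparin-binding growth factor midkine, was at 12.88 and 12.73 in CAF1, against 6.39 to 7.59 with a median of 7.05 in the others, and was higher by 5.79 (SE 0.55, adjusted p = 4.69e-05). It passed over lines (adjusted p = 0.00815), and of 2 further Mdk probes, both higher at the threshold, 1 gave a difference of 5.73 and 1 of 0.816. Fgf2, a fibroblast growth factor, was undetected in the others and at least 1.17-fold higher (adjusted p = 0.00696). Angptl4, a lipase inhibitor and angiogenic factor, was higher by 2.74 (SE 0.77, adjusted p = 0.0381), with arrays of the other lines spread from 6.82 to 10.32. Vegfd, a lymphatic growth factor, was the member that fell, by 1.63 (SE 0.29, adjusted p = 0.00339). In the IGF axis 4 of 14 tested members were higher and 2 lower. Igfbp2, which binds insulin-like growth factors, was at 9.02 and 8.82 in CAF1, undetected in the others and at least 6.69-fold higher (adjusted p = 0.000487). Igfbp4, another binding protein, fell by 3.44 (SE 0.66, adjusted p = 0.00586), so that the 2 binding proteins moved in opposite directions. Igf2bp3, an RNA-binding protein of fetal tissue, was higher by 3.72 (SE 0.38, adjusted p = 7.6e-05), and Gpc3, a glypican, was at least 4-fold higher (adjusted p = 0.00122). Calls that ended with arrays left out were those of Fgf2 (adjusted p = 0.107 without CAF1 culture 1, 0.0682 without CAF1 culture 2), Angptl4 (adjusted p = 0.243 without CAF1 culture 1, 0.222 without CAF1 culture 2, 0.0631 without CAF3 culture 2, 0.0636 without CAF4 culture 2), Vegfd (adjusted p = 0.0753 without CAF1 culture 1) and Igfbp4 (adjusted p = 0.0801 without CAF1 culture 1, 0.0774 without CAF1 culture 2).

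In the Wnt pathway 1 of 20 tested members (43 listed) was higher and 6 were lower, with a median of -0.67. Fewer were lower with either CAF1 culture left out, and without the detection filter 3 were lower. Dkk3, a secreted Dickkopf relative, was the one that rose, by 1.95 (SE 0.44, adjusted p = 0.0132). It was at 10.77 and 11.15 in CAF1, with CAF3 at 10.49 the nearest line. Tcf7l1, a transcription factor of the pathway, fell by 1.09 (SE 0.18, adjusted p = 0.00204) and was the 1 member apart. Wnt5a fell by 1.19 (SE 0.19, adjusted p = 0.00207) against the mean, and stood at 8.12 and 8.34 in CAF1, against 8.89 in CAF2, 11.01 in CAF3 and 8.36 in CAF4, and its second probe gave -0.017. Among TGF-beta and BMP genes 2 of 30 were higher and 4 lower, beside 7.19% of all tested genes higher and 6.43% lower. Fst, follistatin, which binds activin, fell by 2.38 (SE 0.53, adjusted p = 0.0124) and Tgfb2, a TGF-beta ligand, by 1.21 (SE 0.28, adjusted p = 0.0165). With arrays left out, the calls of Dkk3 (adjusted p = 0.0932 without CAF1 culture 1, 0.176 without CAF1 culture 2), Wnt5a (adjusted p = 0.0592 without CAF1 culture 1, 0.17 without line CAF3), Fst (adjusted p = 0.109 without CAF1 culture 1, 0.144 without CAF1 culture 2) and Tgfb2 (adjusted p = 0.152 without CAF1 culture 1, 0.148 without CAF1 culture 2) were lost.

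Plxna2, a semaphorin receptor, was at 5.55 and 5.35 in CAF1, below detection, against 8.82 to 10.19 with a median of 9.39 in the others. All 6 other arrays detected it, it was at least 12.5-fold lower (adjusted p = 7.31e-06), and it passed over lines (adjusted p = 0.0334). Ramp1, a subunit of the receptor for the peptide CGRP, was undetected in CAF1 and at least 5.17-fold lower (adjusted p = 4.23e-05). Of 15 Eph, ephrin and semaphorin genes 4 were higher and 4 lower. The semaphorins Sema3a, higher by 2.13 (SE 0.23), and Sema4a, higher by 1.95 (SE 0.20), rose, and Efna5, an ephrin, fell by 1.53 (SE 0.24, adjusted p = 0.0015). Further losses that were apart concern Atp1b1, a subunit of the sodium pump, at -2.92 (SE 0.28), Chst2, a sulfotransferase, at -2.72 (SE 0.20), and Scara3, a scavenger receptor-like protein, at -2.59 (SE 0.34). Also apart were Arhgef3, at -2.10 (SE 0.25), Podxl2, a relative of podocalyxin, at -2.06 (SE 0.23), and Slc29a1, a nucleoside transporter, at -1.72 (SE 0.25). Slc2a13, a myo-inositol transporter, was at least 3.49-fold lower, and Endod1, a predicted endonuclease, at least 3.54-fold lower, as neither was detected in CAF1.

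Developmental transcription factors were lower in 14 of 39 tested members (82 listed) and higher in 3, with a median of -0.33. Only 2 were apart on the lower side and 1 on the higher side. With either CAF1 culture left out 3 were lower. Msx1, a homeobox repressor of differentiation, was at 5.30 and 5.76 in CAF1, undetected, against 8.48 to 9.60 with a median of 8.71 in the others. It was at least 8.13-fold lower (adjusted p = 2.18e-06) and passed over lines (adjusted p = 0.0338). Gata6, a factor of mesoderm and endoderm, was higher by 2.80 (SE 0.27, adjusted p = 5.73e-05) and apart, whereas Gata2, a factor of blood and fat precursors, fell by 1.18 (SE 0.17, adjusted p = 0.00107). Ebf2, a factor of fat precursors, was undetected in CAF1 and in CAF3 and stood at 9.27 in CAF2 and 8.05 in CAF4. Its log2 difference from the mean of CAF2, CAF3 and CAF4 was -1.92, with CAF3 in that mean at background. HOX genes, which record position along the body axis, changed in both directions: Hoxc9 was higher by 1.75 (SE 0.17) and Hoxc10 by 2.76 (SE 0.38), while Hoxd9 was at least 3.78-fold lower. In Hoxc9, CAF1 at 10.85 and 10.91 lay close to CAF2 at 10.65 and far from CAF4 at 6.95. Of 16 HOX genes tested (35 listed) 2 were higher and 3 lower, and Hoxd9 alone was apart. Over all tested genes 7.19% were higher and 6.43% lower.

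**Figure D3:**
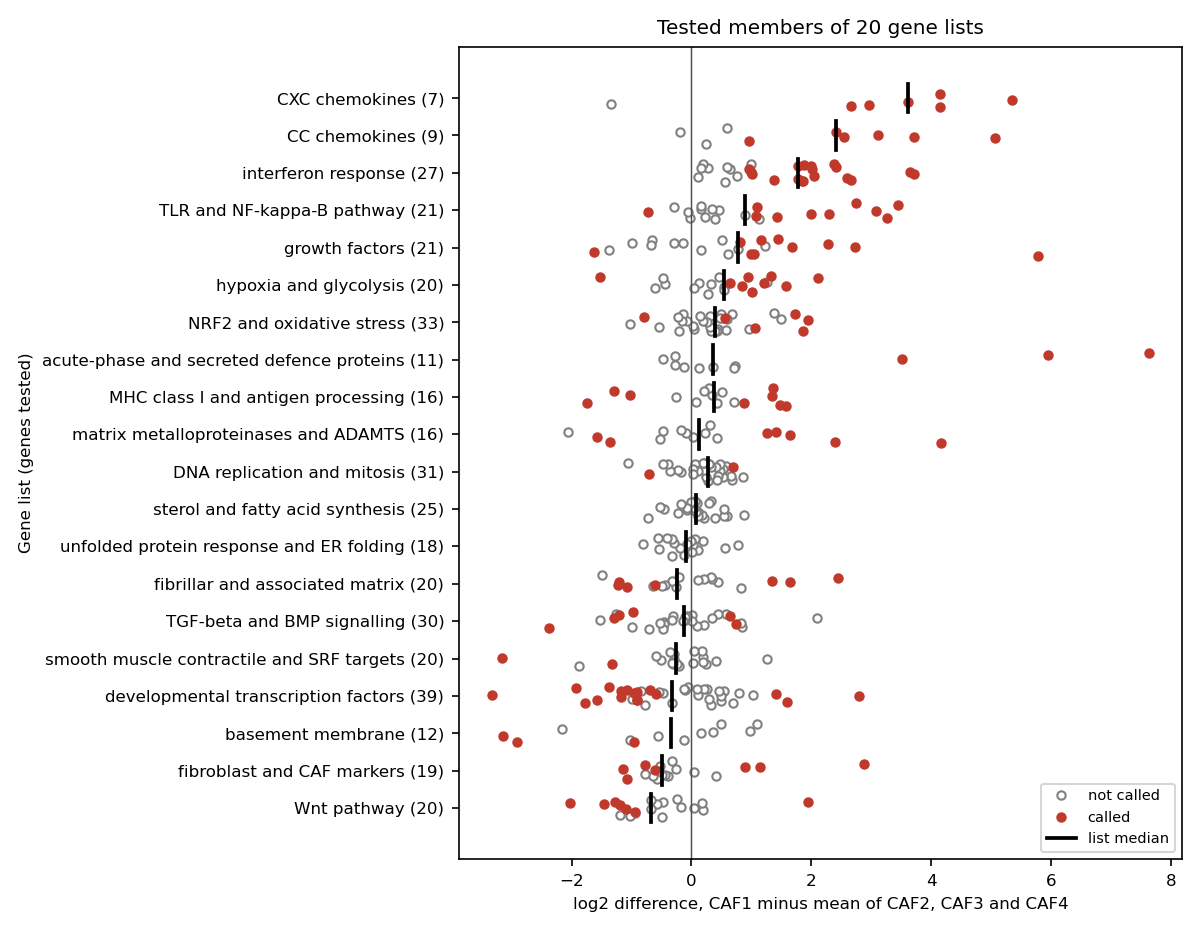
Each dot is a tested gene of 1 of 20 lists, placed by its log2 difference, CAF1 minus the mean of CAF2, CAF3 and CAF4; filled dots passed an adjusted p of 0.05, and the bar is the list median. CXC chemokines (median 3.62), CC chemokines (2.42) and interferon response genes (1.77) lie to the right, and the Wnt pathway (-0.67) lies to the left.

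Glycolytic and hypoxia genes were higher in 8 of 20 tested members (32 listed) and lower in 1, with a median of 0.54, and with either CAF1 culture left out 2 were higher. Slc2a1, the glucose transporter GLUT1, was at 11.47 and 11.43 in CAF1 and at 9.42, 9.28 and 9.33 in CAF2, CAF3 and CAF4. It was higher by 2.11 (SE 0.28, adjusted p = 0.000582) and passed over lines (adjusted p = 0.0248). Tpi1, a glycolytic enzyme, was higher by 1.21 (SE 0.23), and Aldoc, an aldolase, was at least 1.19-fold higher. Ndrg1, a hypoxia-induced gene, fell by 1.53 (SE 0.23, adjusted p = 0.00147), against the direction of the others. Of 33 antioxidant genes 5 were higher and 1 lower, with Sod3, the extracellular superoxide dismutase, higher by 1.86 (SE 0.33) and Srxn1, sulfiredoxin, by 1.06 (SE 0.24). Of 23 p53 targets and regulators 4 were higher and 3 lower, beside 7.19% of all tested genes higher and 6.43% lower. Cdkn2a, the locus of the Ink4a and Arf inhibitors, was higher by 1.53 (SE 0.26, adjusted p = 0.00308) and Phlda3, an inhibitor of Akt, fell by 1.00 (SE 0.13, adjusted p = 0.000444), both apart. Cdkn1a, the p21 inhibitor, was at 12.11 and 11.97 in CAF1 and 11.29 to 12.73 with a median of 11.95 in the others and differed by 0.06 (SE 0.17, adjusted p = 0.844). Among 25 sterol and fatty acid genes and 18 genes of the unfolded protein response 0 passed in limma. Among 31 replication and mitosis genes 1 was higher and 1 lower. Of 20 ETS and MAPK feedback genes 3 were higher and 1 lower. In this group Tpi1 (adjusted p = 0.0703 without CAF1 culture 1, 0.089 without CAF1 culture 2), Sod3 (adjusted p = 0.0701 without CAF1 culture 2), Srxn1 (adjusted p = 0.193 without CAF1 culture 1, 0.0916 without CAF1 culture 2) and Cdkn2a (adjusted p = 0.0779 without CAF1 culture 2) did not pass with arrays left out.

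Set beside the 4 lines of other stages, many genes that were high in CAF1 were high in HpAF1 and AdAF1 as well; these levels are a description. Saa3 was at 14.00 in HpAF1 and 13.98 in AdAF1, like CAF1, and at 7.74 in NF2 and 6.73 in NF3. Nfkbiz was at 11.05 in HpAF1 and 10.89 in AdAF1, also close to CAF1. Serping1 was at 10.07 in NF2 and 11.26 in NF3, so that for this gene the 3 other carcinoma lines were the low ones. Plxna2 was at 5.92 in HpAF1 and 6.42 in AdAF1, near its low level in CAF1. For Col4a1, HpAF1 with 10.12 lay slightly under CAF1, while AdAF1 with 11.89 lay between CAF1 and the other carcinoma lines.

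Only 13 genes (0.174%) were higher and 2 genes (0.0268%) lower in CAF1 than in each of the 7 other lines, as 15 of 10453 probes (0.143%), a comparison added after the data were seen. Csta3, a cysteine protease inhibitor of the stefin family, was at 8.38 and 8.45 in CAF1 and undetected on the 6 arrays of the other carcinoma lines, hence at least 4.73-fold higher (adjusted p = 4.69e-08). Its means in the 4 remaining lines lay between 4.67 in NF3 and 4.87 in HpAF1. Slc15a3, a peptide transporter of lysosomes, was at least 4.3-fold higher, Rxfp1, the receptor of relaxin, at least 3.13-fold higher, and Ldoc1, a small leucine zipper protein, at least 12.5-fold higher. Ranbp3l, a Ran-binding protein that acts in BMP signalling, was at least 3.51-fold higher, and Mrap, an accessory protein of the melanocortin-2 receptor, at least 2.65-fold higher. Trf, the iron carrier transferrin, was at least 2.83-fold higher, with HpAF1 at 6.92 the nearest line to CAF1 at 7.74 and 7.61. Ngfr, the p75 neurotrophin receptor and a marker of Schwann cells and neural crest, was at 6.43 and 6.97 in CAF1 and at least 1.44-fold higher. Of 6 Schwann cell and neural crest markers with a probe, 4 (Cdh19, Foxd3, Gfra3 and S100b) were detected on no carcinoma array, and the summed intensity of the list was 359.9 to 401 in CAF1 and 176 to 275 in the other lines; its part in this result was not tested. Tex11, a meiosis gene of the X chromosome, was at least 1.81-fold higher. Aldoc is described above, and the remaining 3 were F13a1, a coagulation factor subunit, Gja1, the gap junction protein connexin 43, and Gpn2, a GTPase. Gja1 averaged 13.25 in CAF1 and 11.77 in the other carcinoma lines and was bright on every array. On the lower side stood Mgp and Msx1. With detection required on at least 4 of the 16 arrays, 4 of these 15 probes were left. Of all 7454 tested genes, 43 had passed the detection filter on the CAF1 arrays alone and therefore had to differ; Aldoc, Csta3, Mrap, Ngfr, Rxfp1, Slc15a3 and Tex11 are among these.

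**Figure D4:**
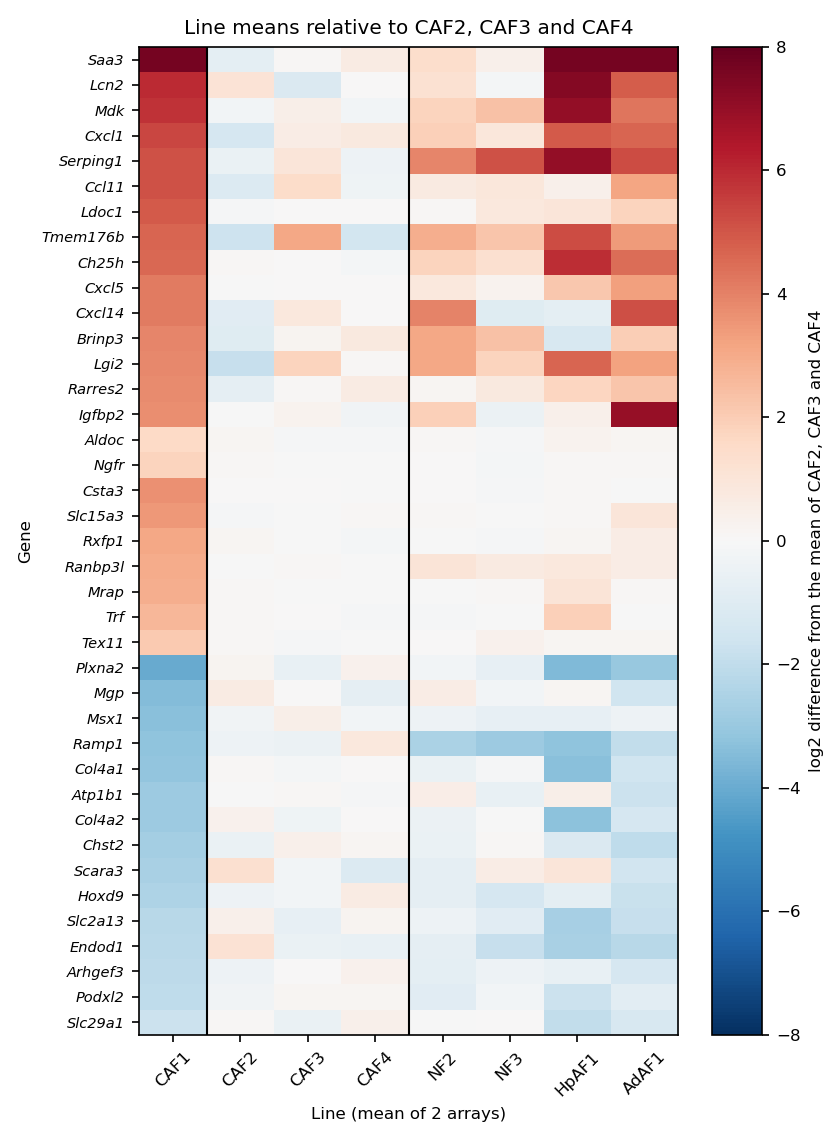
Line means of 2 arrays as log2 differences from the mean of CAF2, CAF3 and CAF4, for the 15 genes of largest difference in each direction and, between them, further genes higher in CAF1 than in each of the 7 other lines; red is higher and blue lower. Saa3, Lcn2, Mdk and Cxcl1 are also high in HpAF1 and AdAF1, whereas Csta3, Rxfp1 and Ngfr are high in CAF1 alone among the 8 columns. Csta3, Rxfp1 and Ngfr passed the detection filter on the CAF1 arrays alone and therefore had to differ.

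Over lines, the higher genes of smallest p were Ldoc1, Ch25h, Cxcl5, Csta3 and Slc15a3, each with an adjusted p of 0.00815, which Mdk shares. Csta3 and Slc15a3 had passed the detection filter on the CAF1 arrays alone and therefore had to differ. With detection on at least 4 arrays, 20 probes passed over lines in place of 45. Of the 147 higher genes that were apart, 57 were undetected on all 6 arrays of the other lines. On the lower side the genes of smallest p over lines were Plxna2, Msx1, Col4a1, Col4a2 and Tsc22d3. Tsc22d3, a glucocorticoid-induced leucine zipper protein, was at 7.93 and 7.63 in CAF1 and 9.28 to 12.02 with a median of 10.87 in the others. Its arrays within the 3 lines differ by nearly as much as the groups, while the line means of CAF2, CAF3 and CAF4 are 11.01, 10.65 and 10.60. It fell by 2.98 (SE 0.73, adjusted p = 0.0202) over cultures and had an adjusted p of 0.0137 over lines. The call over cultures was lost for Tsc22d3 (adjusted p = 0.137 without CAF1 culture 1, 0.194 without CAF1 culture 2).

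Markers of other cell types were mostly undetected, with exceptions that moved with CAF1. Bnc1, a zinc finger protein of mesothelium and keratinocytes, was at 8.71 and 8.63 in CAF1, undetected in the other carcinoma lines and at least 5.63-fold higher (adjusted p = 2.01e-06). Of 9 mesothelial markers with a probe, 5 (Gpm6a, Krt8, Lrrn4, Msln and Upk3b) were detected on no carcinoma array, and the sum of the list was 710 to 730.4 in CAF1 and 318 to 459 in the other lines; its part in the inflammatory and matrix differences was not tested. Of the 4 members that were tested, 2 had a higher and 2 a lower mean in CAF1, Bnc1 alone passed, and the median was 0.118. Coro1a, an actin-binding protein of leukocytes, was higher by 0.98 (SE 0.22, adjusted p = 0.0139). Pericyte markers summed to 402 to 404 in CAF1 and 588 to 2126 in the other lines, and Notch3, which marks pericytes, fell by 0.92 (SE 0.25, adjusted p = 0.0307), with CAF4 at 5.74 below CAF1 and CAF2 and CAF3 above it. Adipocyte markers summed to 647 to 848 in CAF1 and 822 to 2322 in the others, with Fabp4, Plin1 and Lep detected on no carcinoma array. Of 15 endothelial markers 9, among them Pecam1, Cdh5 and Kdr, were detected on no carcinoma array. The same held for 8 of 9 skeletal muscle and 7 of 12 bone and cartilage markers. Of 5 endothelial markers tested, 2 were higher in CAF1 and none was lower or apart, with a median of -0.488. Egfl7 was at 8.96 and 9.19 in CAF1, against 7.057 to 8.745 in the others. Eng was at 7.965 and 8.126 in CAF1, within the 5.223 to 8.788 of the others. C3 and Mki67 are not analysed here. The calls of Coro1a (adjusted p = 0.137 without CAF1 culture 1, 0.139 without CAF1 culture 2) and Notch3 (7 of the left-out cultures or lines, adjusted p up to 0.247) ended when arrays were left out.

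By chromosome, median differences were small, and for several chromosomes their sign differed between the lines. Genes on chromosome 16 had a median log2 difference of 0.242 and genes on chromosome 4 one of 0.218, against -0.02 over all genes. The chromosome 4 median was 0.208 against CAF2, 0.2 against CAF3 and 0.246 against CAF4, and that of chromosome 16 was 0.208 against CAF2, 0.133 against CAF3 and 0.333 against CAF4. Chromosome 18 had a median of 0.16 that rested on CAF3, at -0.0392 against CAF2, 0.487 against CAF3 and -0.0179 against CAF4. Chromosome 11 had a median of 0.134, positive against each line, and holds the tested CC chemokine genes Ccl2, Ccl5, Ccl7 and Ccl11. On chromosome 16, 13.8% of 232 tested genes were higher and 2.16% lower, and on chromosome 4, 12.9% of 456 were higher and 2.41% lower. At the other end, the X chromosome had a median of -0.264 and chromosome 12 of -0.205, negative against each of the 3 lines, whereas chromosome 14 was at -0.428 against CAF2, 0.125 against CAF3 and -0.106 against CAF4. On the X chromosome 3.9% of 231 genes were higher and 10.8% lower. Neighbouring genes are not independent, and no test was made of a chromosome.

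**Figure D5:**
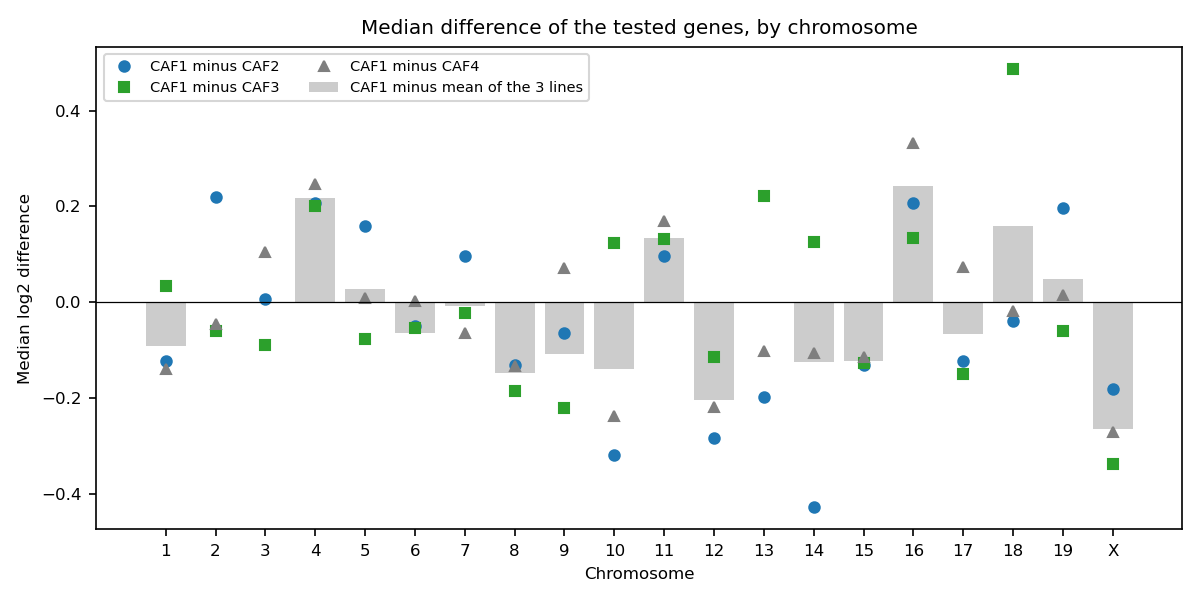
Median log2 difference of the tested genes of each chromosome, with bars for CAF1 minus the mean of CAF2, CAF3 and CAF4 and points for CAF1 minus each line. Chromosomes 4 and 16 lie above 0, and 12 and X below 0, against all 3 lines; the medians range from -0.264 to 0.242.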

How the data were processed

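Biotin-labelled cRNA was measured on Illumina MouseRef-8 bead arrays of 25697 probes, 1 array per culture and 16 in all. The deposited table holds non-normalized bead intensity and, per the file headers, a detection p-value for each probe. A second deposited table holds the authors' processed intensity on a linear scale. The sources used here do not give its method, its arrays have nearly the same quantiles, and it served as an alternative. From the non-normalized intensities, log2 values were computed here by neqc at an offset of 16 (R 4.3.3, limma 3.58.1). Probes with a detection p under 0.01 on at least 2 of the 16 arrays were tested, 10453 in all. Each gene was represented by the probe with the highest mean, which gives 7454 genes, and gene names came from the deposited annotation, updated through 23962 matched Entrez numbers.

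limma was fitted with 1 mean per line over all 16 arrays (8 residual degrees of freedom), and the contrast was CAF1 minus the mean of CAF2, CAF3 and CAF4. Benjamini-Hochberg adjustment ran over all tested probes, with a threshold of 0.05. A second fit used the means of all 8 lines as replicates (3 residual degrees of freedom). NF2 and NF3 shared 1 mean there and so entered the estimate of spread beside CAF2, CAF3 and CAF4. A fold against a group in which a probe was detected on no array is given as a lower bound, against the lowest detected signal of each array or the probe's own signal where that is higher. Undetected arrays of the higher group entered with their own signal, and a bound that includes such arrays is approximate. Scripts were tested on simulated data. The number of arrays limits the precision.

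The comparison, the gene lists and the rule for naming genes were chosen with earlier results of these data known. Named were the 15 genes of largest difference in each direction among those apart, up to 4 genes of smallest p per list, a set of genes picked by name and the 5 genes of smallest p per direction over lines. The genes apart from all 7 other lines and the further genes of the same direction beside them were chosen after the values were seen. Alternatives were the authors' normalized values, other background corrections, other detection filters, leaving out a culture or a line, fewer arrays, a stricter threshold, a culture block and a random line block.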

Additional observations from a re-analysis of the deposited data

Results flagged for a closer look

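Among the 122 named genes, 5 had 1 array of the lines CAF2, CAF3 and CAF4 far from the 5 others by Dixon's criterion. The criterion takes the arrays as independent, whereas each line gave 2 of them, so its chance rate here is not known. Phlda3, an Akt inhibitor that fell in CAF1, was at 12.07 on the second CAF2 array, above the others. Aldoc, an aldolase, was at 5.26 on the second CAF2 array, still undetected there. Vim, the mesenchymal filament, was at 13.55 on the first CAF3 array, below the others and above both CAF1 arrays. Coro1a, an actin-binding protein of leukocytes, was at 4.96 on the first CAF4 array, and Tex11, a meiosis gene, was at 4.73 on the second CAF3 array, both near background.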

How the results depend on the processing

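No count of probes moved by more than 1.5 times under the authors' normalized values, other background corrections or the 8 carcinoma arrays alone. Of 113 called genes in the text, 80 kept their call under every alternative run for that gene, and each of the 33 that lost it did so with 1 CAF1 culture left out. Detection on at least 4 arrays covered 106 of the 122 genes in the text, and the stricter threshold and the random block were run for counts alone. With arrays left out 1 at a time, between 283 and 1361 probes passed over cultures, between 87 and 229 were apart from the 3 lines, between 7 and 15 from all 7 lines, and between 19 and 51 passed over lines. With a whole line left out, 504 probes were apart without CAF3 and 414 without CAF4, where 1 pair fewer is required, and 0 passed over lines without CAF4 in limma (1078 at an unadjusted p under 0.05). Detection on at least 4 arrays left 20 probes over lines and 4 apart from all 7 lines. At an adjusted p under 0.01 and a log2 difference of at least 1, the counts were 441 over cultures, 119 apart and 9 apart from all 7 lines. Treating arrays as units with the line as a random block gave 293 probes in place of 45, and the cause was not tested. Sign changes concerned 4 genes that did not pass. Col3a1 was at 0.068 without the first CAF1 culture, in a range of -1.04 to 0.068 over arrays left out singly. Cdkn1a was at -0.0083 without the first CAF1 culture, -0.19 without line CAF4 and -0.14 over its probe mean, in a range of -0.013 to 0.134 over arrays left out singly. Acta2 was between -0.063 and 0.138 over arrays left out singly, -0.039 without line CAF3, -0.023 without line CAF4 and -0.18 over its probe mean. Serpina3n was at -0.25 without line CAF2.

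The culture numbers were checked as a pairing. Deviations of same-numbered CAF1 cultures correlated at 0.0741 to 0.0801 with those of the other carcinoma lines, and the other 3 pairs of carcinoma lines at 0.316 for CAF2 and CAF3, 0.653 for CAF2 and CAF4 and 0.425 for CAF3 and CAF4. Not every pair exceeded 0.1, so the numbers were not taken as a pairing. With the culture number as a replicate block, 1666 probes passed over cultures, 341 were apart from the 3 lines and 16 from all 7.

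A single line stands for CAF1, with 2 cultures, and the fit over lines used 8 line means with 3 residual degrees of freedom. The sources used here do not give chip position or labelling day, so array batch and line cannot be told apart. Near background, differences are compressed and many folds are lower bounds.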
